A study of Mus musculus with 2 samples.

Results

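The genes described here are the receptors for serotonin, noradrenaline and adrenaline, dopamine, acetylcholine and histamine that signal through heterotrimeric G proteins. They were picked by symbol alone, from the protein-coding genes named Htr (without the channel subunits of Htr3), Adra, Adrb, Drd, Chrm and Hrh. That rule uses no measured values, but the receptors and the lists set beside them were chosen with earlier results of these data known. The rule found 35 genes among 21474 protein-coding genes and 43346 mouse genes in all: 12 serotonin, 9 adrenergic, 5 dopamine, 5 muscarinic acetylcholine and 4 histamine receptors. RNA was measured in Purkinje cells, which carry the inhibitory output of the cerebellar cortex. The source was the adult, 8-month, male wild-type mouse on a C57Bl6 background (strain B6NCrl). There was 1 group, with no treatment and no altered allele, of 2 biological replicates called pool 1 and pool 2, and each library came from a pool of 50 cells taken by laser capture. Both pools carry the same donor identifier, so the labels do not show that they came from separate animals, and the spread between them may be technical. A single group allows no contrast of conditions, so no p-value is given.

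All 5 transmitters reach the cerebellum as modulators. Serotonin fibres come from the brainstem raphe and reticular nuclei, noradrenaline fibres from the locus coeruleus and histamine fibres from the tuberomammillary nucleus, and acetylcholine is carried by part of the mossy fibres. Their receptors span the membrane with a bundle of helices and fall into 3 groups by the G protein they mainly engage: Gi/o lowers cAMP and opens potassium channels, Gs raises cAMP, and Gq/11 activates phospholipase C and releases stored calcium.

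Pool 1 held 23830685 expected counts, the authors' estimated reads per gene, and pool 2 held 27907662. Levels below are TPM, the authors' length-corrected share of transcripts, which can be compared between genes. A gene was called detected where its TPM was 1 or more in each pool. Intervals are exact Poisson intervals at 95% on the expected counts and cover counting error only. Purkinje cell markers carried the label: all 15 of a fixed list were detected, with a summed TPM of 42205 in pool 1 and 40552 in pool 2. Other cells were present in both pools, so a receptor read here need not come from a Purkinje cell. The Bergmann glia and astrocyte list was detected in 13 of 13 genes, with a summed TPM of 4902 in pool 1 and 5037 in pool 2. The oligodendrocyte list was detected in 8 of 8 (225 and 217 TPM), the granule cell list in 7 of 10 (119 and 153), the endothelial and pericyte list in 7 of 8 (110 and 138), and the microglial list in 5 of 8 (40.7 and 51.5). The molecular layer interneuron list was detected in 8 of 8, with 6682 TPM in pool 1 and 8245 in pool 2, nearly all of it from Pvalb, which Purkinje cells also express. The next highest of that list were Prkcd, with 9.83 TPM in pool 1 and 38.65 in pool 2, and Nxph1, with 16.37 and 11.16. In bulk pools, fewer cells of a type and less RNA per cell cannot be told apart.

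Sequence around 4 annotated starts is shown because 3 of the 4 highest receptors had their leading transcript start inside 1 of these windows, and because Hrh1 had several annotated starts far apart. Each holds 300 bases, 250 before and 50 after an annotated start, from RefSeq on GRCm38.p6, written 5′ to 3′ on the gene's strand with every CpG in capitals.
Htr1b, minus strand, chr9:81633783-81634082: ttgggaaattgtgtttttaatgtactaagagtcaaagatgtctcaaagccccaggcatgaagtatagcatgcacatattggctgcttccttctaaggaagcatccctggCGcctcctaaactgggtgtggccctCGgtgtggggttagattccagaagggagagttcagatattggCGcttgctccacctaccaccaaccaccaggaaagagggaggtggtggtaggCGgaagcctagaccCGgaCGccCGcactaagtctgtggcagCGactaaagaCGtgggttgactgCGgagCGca
Hrh1, plus strand, inner start, chr6:114458272-114458571: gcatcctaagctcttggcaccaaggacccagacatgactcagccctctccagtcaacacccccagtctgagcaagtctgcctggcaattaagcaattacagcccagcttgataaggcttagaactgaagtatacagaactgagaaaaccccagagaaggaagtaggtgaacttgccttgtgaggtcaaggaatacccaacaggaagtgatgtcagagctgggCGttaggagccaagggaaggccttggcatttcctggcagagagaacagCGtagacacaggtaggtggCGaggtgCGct
Hrh1, plus strand, upstream start, chr6:114397836-114398135: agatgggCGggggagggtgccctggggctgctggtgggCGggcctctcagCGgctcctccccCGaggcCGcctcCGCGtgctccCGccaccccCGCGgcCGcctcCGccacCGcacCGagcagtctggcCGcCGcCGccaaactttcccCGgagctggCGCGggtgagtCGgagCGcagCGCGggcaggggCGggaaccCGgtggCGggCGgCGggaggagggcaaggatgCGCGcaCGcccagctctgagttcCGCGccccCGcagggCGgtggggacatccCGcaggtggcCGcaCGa
Drd4, plus strand, chr7:141291768-141292067: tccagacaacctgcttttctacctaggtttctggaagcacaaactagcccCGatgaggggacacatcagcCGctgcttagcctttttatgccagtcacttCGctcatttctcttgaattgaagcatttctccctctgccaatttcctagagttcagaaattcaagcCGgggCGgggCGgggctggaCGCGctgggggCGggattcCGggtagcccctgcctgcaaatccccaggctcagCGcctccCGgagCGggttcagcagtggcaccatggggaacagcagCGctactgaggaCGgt
The inner Hrh1 window holds 4 CpG and the upstream one 39, against 11 for Htr1b and 15 for Drd4. The start of the leading transcript lay 4 bases from the RefSeq start for Htr1b, 3 bases for the inner Hrh1 window and 12 bases for Drd4.

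Of the 35 receptors, 10 were detected in both pools, or 28.6%, beside 51.7% of all protein-coding genes. The median of the mean TPM was 0.075 over the 35 receptors and 1.51 over all protein-coding genes. The detected receptors included Htr1b, Hrh1, Adra2b, Drd4, Hrh3, Adra1a, Hrh2, Chrm2 and Adrb1. Htr5a reached a TPM of 1 in pool 1 alone, and 24 receptors stayed under it in both pools. A cut of 5 TPM in each pool left 1 receptor, Htr1b, beside 35.9% of protein-coding genes. The summed TPM of all 35 was 49.03 in pool 1 and 42.5 in pool 2, from 3632 and 3699 expected counts.

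**Figure D1:**
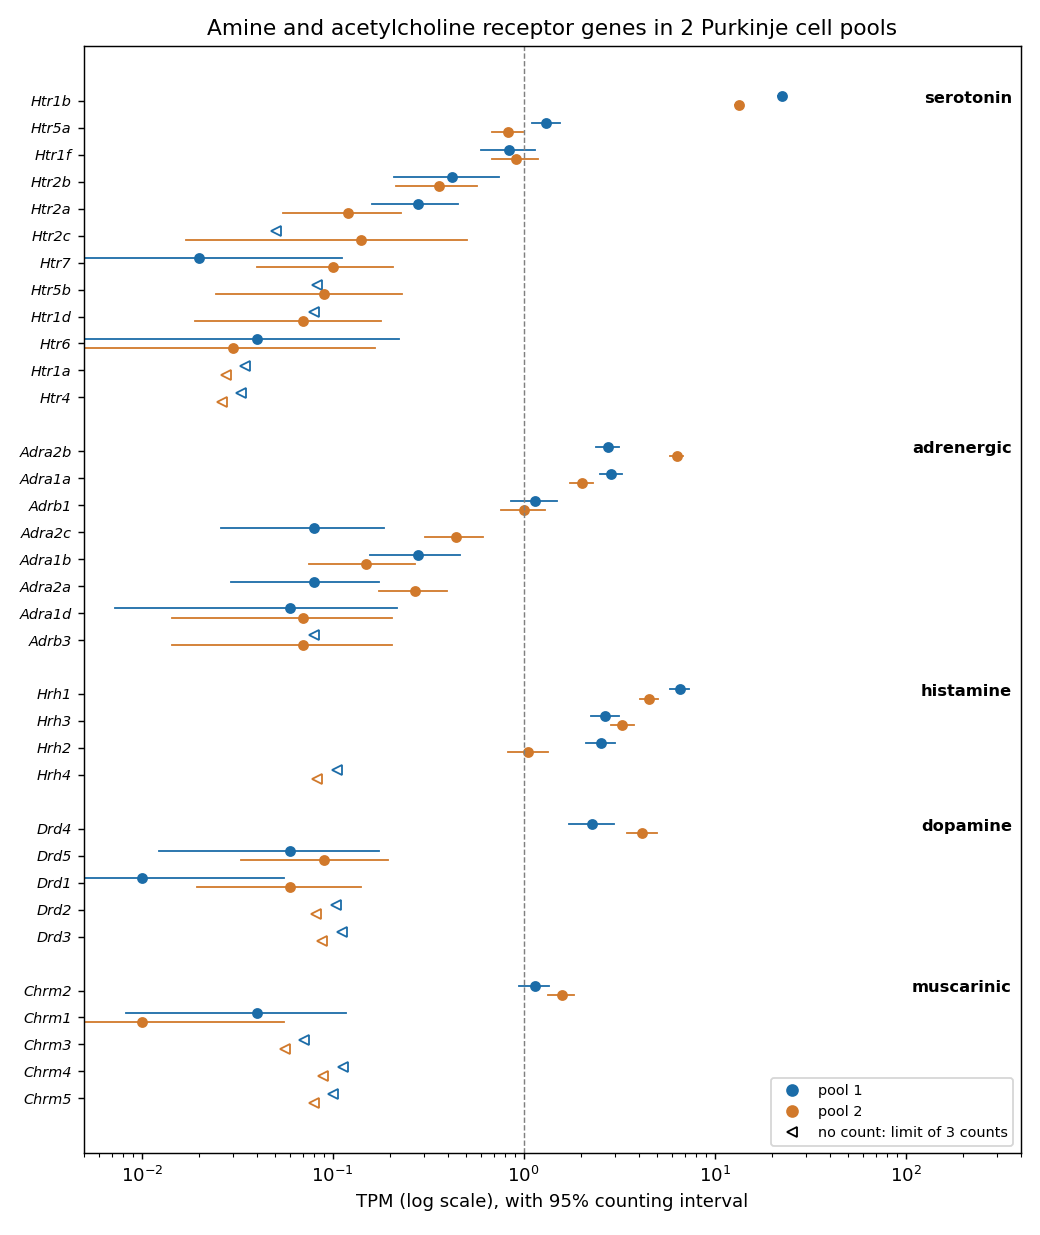
TPM of the receptor genes named in the text, in pool 1 (blue) and pool 2 (orange) on a log axis, grouped by ligand, with 95% counting intervals; open triangles mark the limit that no count allows, and the dashed line is a TPM of 1. Htr1b stands above every other receptor in both pools, and 8 receptors have no count in either.

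Htr1b, the Gi/o-coupled serotonin 1B receptor that sits on axon terminals and restrains transmitter release, was the highest receptor in both pools. Its gene (ENSMUSG00000049511.5; chromosome 9, 81628291 to 81633828, minus strand) holds the whole coding sequence in 1 exon. It had 22.5 TPM in pool 1 (interval 21.5 to 23.5, from 2064 expected counts) and 13.4 TPM in pool 2 (12.8 to 14.1, from 1562). These values were 3.43 times the next highest receptor in pool 1 and 2.12 times in pool 2, and the lower Htr1b pool lay above both pools of every other receptor. Htr1b alone took 45.9% of the summed receptor TPM in pool 1 and 31.6% in pool 2. By mean TPM, 79.0% of protein-coding genes were lower and 4512 were higher. An antisense gene, D430036J16Rik (chromosome 9, 81631551 to 81645156, plus strand), shares 852 exonic bases with Htr1b, which is 18.0% of the exonic bases of Htr1b. D430036J16Rik had 49.4 TPM in pool 1 and 32.1 TPM in pool 2, from 924 and 816 expected counts. No source used here gives the strand setting of the libraries, so reads in the shared bases cannot be told apart. The authors' posterior SD of the Htr1b count was 10.4 reads in pool 1 and 10.1 in pool 2. D430036J16Rik had the same posterior SD in each pool, so the Htr1b level may depend in part on how shared reads were split.

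The other serotonin receptors were low. Htr5a, a Gi/o-coupled receptor of the brain (chromosome 5, 27842149 to 27855088), had 1.31 TPM in pool 1 (1.10 to 1.54) and 0.83 TPM in pool 2 (0.685 to 0.996). Htr1f, another Gi/o-coupled receptor and the target of some migraine drugs (chromosome 16, 64924729 to 65105854), had 0.84 TPM in pool 1 and 0.91 TPM in pool 2, just under the threshold in both. The next below it was Htr2b, the Gq/11-coupled receptor known from heart valves and gut, with 0.42 and 0.36 TPM from 11.1 and 18.0 expected counts. Psmd1, on the opposite strand, shares 252 exonic bases with Htr2b and had 56.6 TPM in pool 1 and 45.8 in pool 2. The posterior SD of the Htr2b count was only 0.3 reads in pool 1 and 0 in pool 2. With so few reads the Htr2b level is still uncertain. Htr2a, the Gq/11-coupled target of hallucinogens, had 16 counts in pool 1 and 9 in pool 2. Htr1a, the somatic autoreceptor of raphe neurons, and Htr4, a Gs-coupled receptor, had no count in either pool. No count allows up to 0.0348 TPM for Htr1a in pool 1 and 0.0275 TPM in pool 2, taking 3 counts as the limit in each library. Like the intervals, such limits cover counting error only, here and below. Htr2c, Htr7, Htr5b, Htr1d and Htr6 each had between 2 and 8 counts over both pools together.

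Adrenergic receptors formed the family with the most detected members, 4 of 9. Adra2b, an alpha-2 receptor coupled to Gi/o (ENSMUSG00000058620.5; chromosome 2, 127363208 to 127367221), had 2.76 TPM in pool 1 (2.40 to 3.16) and 6.34 TPM in pool 2 (5.85 to 6.86). Adra1a, an alpha-1 receptor coupled to Gq/11 (chromosome 14, 66635251 to 66771168), had 2.88 TPM in pool 1 (2.52 to 3.27) and 2.01 TPM in pool 2 (1.74 to 2.31). Adra2b led by the mean of the pools, while in pool 1 Adra1a was as high within the counting intervals. Adrb1, a beta receptor that raises cAMP through Gs (chromosome 19, 56722199 to 56733113), stood at the threshold with 1.14 TPM in pool 1 and 1.00 TPM in pool 2, and its counting interval in each pool reached below 1. Adra2c, an alpha-2 receptor of neurons, had 0.08 TPM in pool 1 from 5 counts and 0.44 TPM in pool 2 from 34 counts. Adra1b, Adra2a, Adra1d and Adrb3 lay between 0 and 0.28 TPM in the pools. All 3 alpha-2 receptors had more TPM in pool 2.

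Histamine receptors were detected in 3 of 4 members, one for each kind of G protein. Hrh1, the Gq/11-coupled target of the sedating antihistamines (ENSMUSG00000053004.8; chromosome 6, 114397936 to 114483296), had 6.56 TPM in pool 1 (5.87 to 7.31) and 4.53 TPM in pool 2 (4.04 to 5.06). Hrh3, the Gi/o-coupled receptor on nerve terminals (chromosome 2, 180099465 to 180104488), had 2.68 TPM in pool 1 and 3.29 TPM in pool 2, with counting intervals that overlap. Hrh2, the Gs-coupled receptor through which histamine excites Purkinje cells in the rat (chromosome 13, 54192129 to 54236180), had 2.53 TPM in pool 1 (2.12 to 2.99) and 1.06 TPM in pool 2 (0.829 to 1.34). Hrh4, a receptor of blood cells, had no count in either pool. The histamine family held 24.0% of the summed receptor TPM in pool 1 and 20.9% in pool 2.

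Among dopamine receptors Drd4 alone was detected. It is a D2-like receptor coupled to Gi/o (ENSMUSG00000025496.4; chromosome 7, 141292006 to 141296464) and had 2.29 TPM in pool 1 (1.73 to 2.97, from 56 counts) and 4.18 TPM in pool 2 (3.49 to 4.96, from 130). Drd2 and Drd3, the other D2-like receptors, had no count in either pool, which allows Drd2 up to 0.104 TPM in pool 1 and 0.0822 TPM in pool 2. The Gs-coupled Drd1 had 1 count in pool 1 and 5 in pool 2, and Drd5 had 3 and 6. Th, the enzyme that starts dopamine and noradrenaline synthesis, had 1.63 TPM in pool 1 and 77.4 TPM in pool 2. No dopamine receptor differed between the pools by as much.

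Among muscarinic receptors Chrm2 alone was detected. It is a Gi/o-coupled receptor, best known for slowing the heart (chromosome 6, 36388084 to 36528414), and had 1.14 TPM in pool 1 (from 126 counts) and 1.58 TPM in pool 2 (from 167). The counting interval of Chrm2 in pool 1 reached below 1. In pool 2, 27.55% of the Chrm2 TPM came from a short transcript that rested on 6.56 expected counts and had none in pool 1. The counting intervals do not allow for that, so the difference between the pools is uncertain. On the opposite strand 9330158H04Rik shares 142 exonic bases with Chrm2 and had 0.78 TPM in pool 1 and 1.27 TPM in pool 2. Chrm3, Chrm4 and Chrm5 had no count in either pool, and Chrm1 had 3 counts in pool 1 and 1 in pool 2. The highest limit that no count allowed among the 8 receptors without a count was 0.113 TPM, for Chrm4 in pool 1. No count in either pool was found for 8 of 35 receptors, beside 24.9% of protein-coding genes.

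Beyond Htr1b the order of levels is loose. Hrh1 and Adra2b overlap, since Adra2b lay under Hrh1 in pool 1 and above it in pool 2. Drd4, Hrh3 and Adra1a spanned 2.01 to 4.18 TPM and overlap with each other and with Adra2b, and Hrh2, at 1.06 to 2.53 TPM, overlaps with Adra1a. Chrm2, Htr5a and Adrb1 lay between 0.83 and 1.58 TPM, and neighbours among them do not differ beyond the spread of the pools. Htr1f lay under Adrb1 in both pools but within the range of Htr5a.

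Summed by ligand, serotonin receptors took 44.8% ± 9.87 of the receptor TPM (SD, n = 2), histamine receptors 22.5% ± 2.19, adrenergic receptors 22.1% ± 7.30, dopamine receptors 7.51% ± 3.81 and muscarinic receptors 3.08% ± 0.946. The serotonin share rests on 1 gene: Htr1b held 88.5% of its family in pool 1 and 83.5% in pool 2, and the other 11 serotonin receptors together had 2.91 TPM in pool 1 and 2.65 TPM in pool 2. Drd4 held 96.8% ± 0.352 of the dopamine receptors and Chrm2 98.0% ± 1.95 of the muscarinic receptors. Hrh1 held 53.4% ± 3.34 of the histamine receptors. Adra2b held 33.2% of the adrenergic receptors in pool 1 and 54.7% in pool 2, while Adra1a held 34.6% and 17.3%. The first 4 leaders were the same gene in both pools, and the leading adrenergic receptor was not.

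Grouped by main G protein, the 15 Gi/o-coupled receptors took 71.2% ± 3.62 of the receptor TPM, the 10 Gq/11-coupled receptors 19.4% ± 2.86 and the 9 Gs-coupled receptors 9.23% ± 0.902 (SD, n = 2). Without Htr1b the Gi/o share was 42.1% in pool 1 and 61.7% in pool 2, the Gq/11 share 39.6% and 25.4%, and the Gs share 18.2% and 12.6%. The order of the 3 classes was the same in both pools with and without Htr1b. Htr5b, whose coupling is not settled, was left out of the classes and had 0 and 4 counts.

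**Figure D2:**
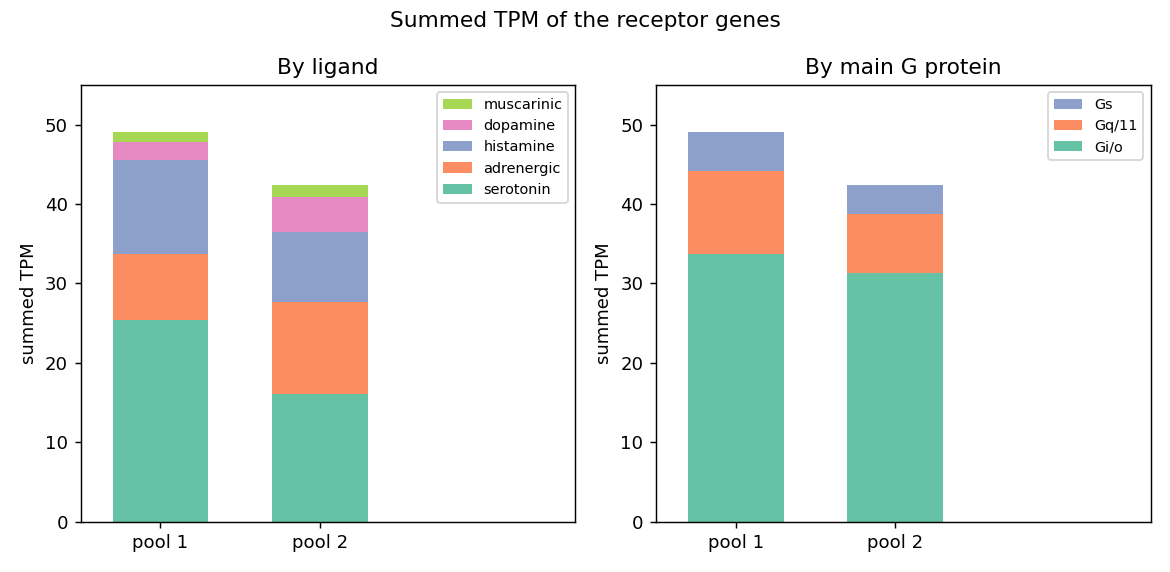
Summed TPM of the receptor genes in each pool, stacked by ligand on the left and by main G protein on the right. Serotonin and Gi/o-coupled receptors form the largest blocks in both pools; the sum by ligand is 49.03 TPM in pool 1 and 42.5 TPM in pool 2, and Htr5b is left out of the right panel.

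The 2 pools differed for several receptors. For the 12 receptors with a mean of at least 20 expected counts, the difference is given as log2(TPM + 1) in pool 1 minus that in pool 2. On that scale the ratios of low genes come out smaller than they are. It is set beside the central 90% of the same difference over protein-coding genes whose mean count was within 2-fold of the receptor's, given here as the 5th to 95th percentile. With 1 library on each side no test was possible. Adra2b lay furthest out, at -0.97, beside -0.47 to 0.63 for 4010 such genes, and its TPM ratio was 0.435 (exact binomial interval 0.370 to 0.510, counting error only). Hrh2 had a difference of 0.78, beside -0.65 to 0.59, and a ratio of 2.39 (1.78 to 3.22). Htr1b had a difference of 0.70, beside -0.34 to 0.64, and a ratio of 1.68 (1.57 to 1.79). These 3 of 12 lay outside the central range, and Drd4, at -0.65 beside -0.66 to 0.58, lay at its edge. The TPM ratio was at least 2-fold for 2 of the 12, beside 5.42% of 12611 protein-coding genes. The counting interval excluded equality for 8 of the 12, beside 62.0% of those genes, a share near the background. Chrm2 is among these 8, and its interval does not allow for the short transcript described above.

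**Figure D3:**
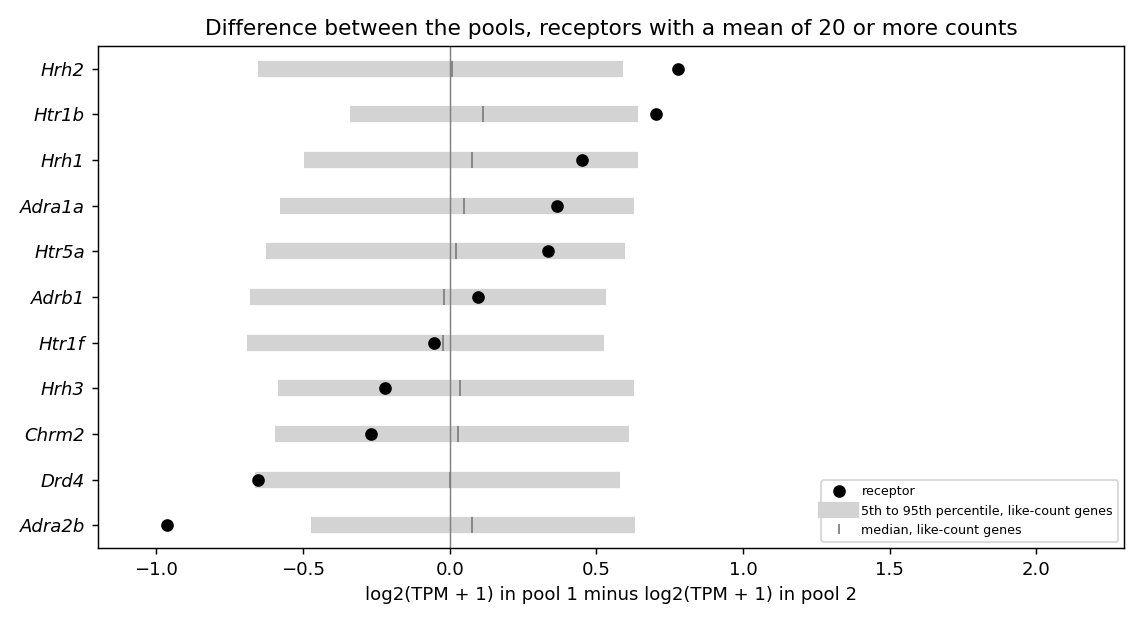
Difference in log2(TPM + 1), pool 1 minus pool 2, for the named receptors with a mean of at least 20 expected counts (points), over the 5th to 95th percentile (grey bars) and median (ticks) of protein-coding genes of like counts. Hrh2 and Htr1b lie to the right of their bars and Adra2b to the left.

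By deposited TPM, 6 of the 12 were higher in pool 1 and 6 in pool 2, but scaled to the spike-ins 3 were higher in pool 1 and 9 in pool 2. That scale moved the median of the 12611 protein-coding genes with a mean of at least 20 expected counts by -0.48 on the log2 scale. With spike-in scaling Hrh1, Adra1a and Adrb1 turned to values below 0, from -0.20 to -0.04. Htr1b was then 0.16, Hrh2 0.42 and Adra2b -1.42. Some markers of other cells also differed between the pools. The smooth muscle list (Acta2, Myh11 and Tagln) had a summed TPM of 5.69 in pool 1 and 0.43 in pool 2, with 0 of 3 genes detected in both. The blood list, with 5 of 5 detected, had 651 TPM in pool 1 and 2274 in pool 2, from its haemoglobin genes, while Alas2 had 2.22 and 1.43 TPM. The Golgi or glycinergic neuron list, with 2 of 5 detected and Nxph2 at 0, had 9.05 and 22.2 TPM, nearly all of the difference from Sst (1.01 TPM in pool 1 and 13.35 TPM in pool 2). The median of that list was 0.98 TPM in each pool. In the molecular layer interneuron list Prkcd was higher in pool 2 (9.83 TPM in pool 1 and 38.65 in pool 2). Kit was higher in pool 1 (11.6 and 6.04 TPM), and the list median was 9.1 and 7.465 TPM. The part of these markers in the receptor differences was not tested.

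Leading transcripts are described for the receptors with enough reads. Of the 12 receptors with a mean of at least 20 counts, 6 had 1 annotated transcript and 6 had several. In 5 of these 6 the same transcript led in both pools. The same share over all genes with several transcripts is not given here, so this count only describes these receptors. For Htr1b and Adra2b 1 transcript took all reads in both pools, and for Hrh3 the leading transcript took 98.1% ± 0.0283 of the gene (SD, n = 2). The leading Hrh1 transcript, which starts in the inner window printed above, took 85.4% of the gene in pool 1 and 85.9% in pool 2. Of the 2 transcripts that start inside the upstream window, 1 took 4.4% in pool 1 and 7.5% in pool 2, and the other took 8.72% in pool 1, from 4.28 counts, and none in pool 2. Adra1a was split, with 45.7% and 47.8% for 1 transcript and 49.9% and 31.1% for another, so a different one led in each pool. For Chrm2 the leading transcript took 100% of the gene in pool 1 and 72.5% in pool 2. The remainder in pool 2 rested on 6.56 expected counts of a short transcript.

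Gene structure and position played no part in the choice by symbol. By the GENCODE annotation, release M21, 17 of the 35 have their longest coding sequence in 1 exon, 6 of the 10 detected receptors among them, and the others have up to 8 coding exons. Median transcript length, from the authors' values for pool 1 and not from M21, was 2733 nt for the detected receptors and 2509 nt for the other 25. In genes with several transcripts that length depends on the measured transcript mix. Hrh2 and Drd1 lie 136 kb apart on chromosome 13, and of this pair Hrh2 was detected while Drd1 had no more than 5 counts in a pool. Windows around annotated starts, as printed above, were held for 27 of the 35 receptors, and the other 8 included Adra1a, Adra1d, Adrb3, Chrm1, Hrh4, Htr4 and Htr5b. The motif CCAAT, searched on both strands, was in a window of 6 of 8 detected receptors, 6 of 19 others and 41.1% of 27025 genes. GGGCGG, which itself contains a CpG, was in 7 of 8, 11 of 19 and 38.2%. AGGTCA was in 1 of 8, 5 of 19 and 18.1%, and TATAAA in 0 of 8, 1 of 19 and 15.7%. The median of the highest CpG count per gene was 22 in the detected receptors, 14 in the others and 8 over all genes. For Hrh1 the highest count, 39, and the GGGCGG match came from upstream windows. Its inner window, where the leading transcript starts, holds 4 CpG and no GGGCGG, so both figures lean partly on a distant start. These matches are descriptions of the letters in the windows.

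Other receptor families had higher medians of the mean TPM: 79.2 for GABA-B, 4.4 for metabotropic glutamate and 0.78 for cannabinoid and adenosine receptors, beside the 0.075 given above. The detection counts of these lists stand beside 51.7% of all protein-coding genes. Metabotropic glutamate receptors were detected in 5 of 8 members. Among them Grm7, a Gi/o-coupled receptor of nerve terminals, averaged 25.1 ± 5.45 TPM and Grm3 7.02 ± 1.73 TPM (SD, n = 2). Both GABA-B receptor subunits were detected, Gabbr1 with 98.4 ± 28.5 TPM and Gabbr2 with 59.98 ± 4.70 TPM. Of 6 cannabinoid and adenosine receptors 3 were detected, led by Cnr1 (28.6 ± 4.62 TPM) and Adora1 (5.68 ± 0.467), with Adora2b at 1.42 ± 0.0849. Ion channels gated by the same transmitters were mostly under the threshold: 1 of 18 nicotinic and serotonin 3 subunits was detected, Chrnb2, with 6.98 TPM in pool 1 and 5.22 TPM in pool 2. Chrnb1 (0.20 TPM in pool 1 and 0.80 in pool 2) and Chrna2 (0.46 and 0.17) followed, and Htr3a and Htr3b had no count in either pool.

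**Figure D4:**
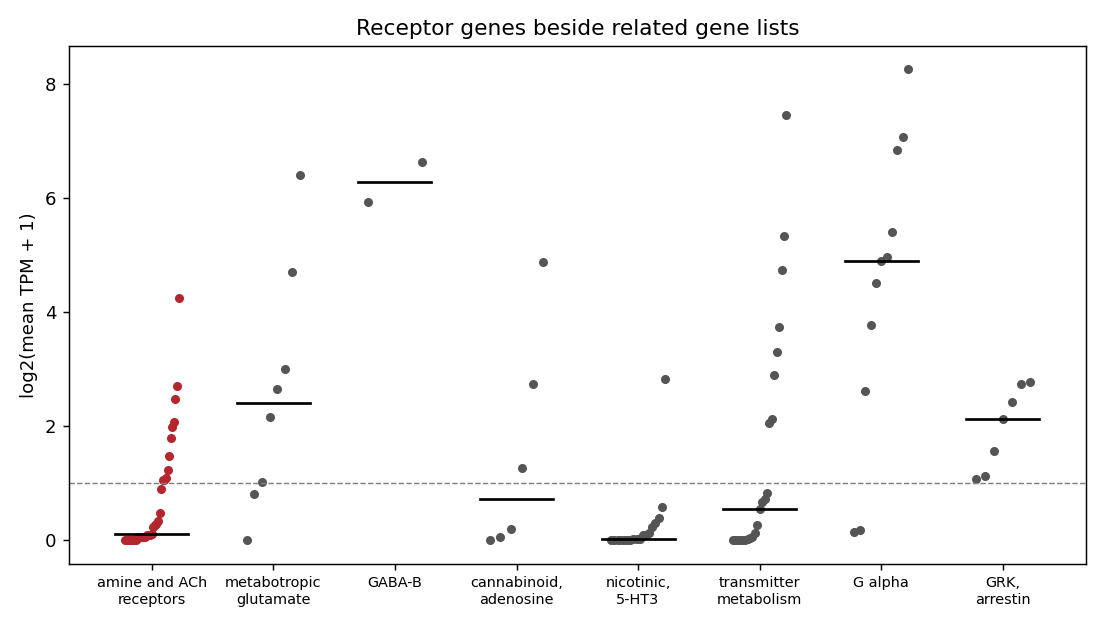
Mean TPM of the 2 pools on a log2(TPM + 1) scale for the 35 receptors (red) and for related lists (grey), 1 point per gene with the median as a bar; the dashed line is a mean TPM of 1. The receptors have a median near 0 with Htr1b on top, while Gabbr1 and most G protein alpha subunits lie above Htr1b.

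Most of the listed G protein alpha subunits and receptor kinases were detected, beside 51.7% of all protein-coding genes. Of 11 G protein alpha subunits 9 were detected, led by Gnas (304.9 ± 37.3 TPM), Gnao1 (134 ± 5.88) and Gnai1 (113 ± 9.72), which carry Gs and Gi/o signals. All 7 receptor kinases and arrestins, which switch active receptors off, were detected, with Arrb1 at 5.82 ± 0.0707 TPM, Grk6 at 5.66 ± 0.219 and Grk3 at 4.4 ± 0.339. At a cut of 5 TPM in each pool only 2 of these 7 stayed, beside 35.9% of protein-coding genes. Of 23 genes of transmitter synthesis, storage, uptake and breakdown 8 were detected, a smaller share than the 51.7% of all protein-coding genes. They included Th (39.5 ± 53.6 TPM) and Hnmt, which methylates histamine (25.7 ± 7.08). Hdc, which makes histamine, had 6.81 TPM in pool 1 and 6.02 TPM in pool 2. Tph2, which starts serotonin synthesis in the brain, had 0.70 and 0.61 TPM. Chat, which makes acetylcholine, and Dbh, which turns dopamine into noradrenaline, had no count in either pool.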

How the data were processed

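RNA-seq with spike-in RNAs was done on 2 pools of 50 Purkinje cells, RNA over a length limit being selected per the labels. A Smart-seq protocol is linked in the labels of pool 2. For pool 1 the sources used here give none. The authors deposited expected counts per gene and transcript (estimated reads, not normalized), TPM values scaled to 1 total per library with spike-ins included, and the percent of each transcript in its gene, on mm10 with GENCODE M4 per the file headers and the notes deposited with them. Aligner, quantification tool and strand setting: not given in the sources used here. Of all counts, spike-ins made up 1.40% (pool 1) and 0.940% (pool 2).

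Symbols and positions came from GENCODE M21 on the same assembly, and 884 genes without a symbol there were not searched. Entries with numeric identifiers (26248) were left out. No test between conditions was possible. Count intervals are exact Poisson and ratio intervals exact binomial (Clopper-Pearson), both at 95% on rounded counts. They cover counting error alone, because without molecular identifiers several reads can stem from 1 molecule, and no count was given a limit of 3 counts per library. Alternative scales used edgeR 4.0.16 (TMM) and DESeq2 1.42.0 (size factors) in R 4.3.3. The other software was scipy 1.17.1, numpy 2.4.6, pandas 2.3.3 and matplotlib 3.10.9 under Python 3.11.15, and the interval functions were tested on simulated data. Values in each pool were printed for receptors detected in either pool, the leader of each family and the next 3 by mean TPM. For the 3 highest genes of each related list plus Th, Tph2, Chat, Hdc and Dbh, either these or the mean and SD were printed. Some genes that this rule names are not reported here. Other receptors and markers named with values were chosen after these were seen. The receptors and lists were chosen with earlier results of these data known. Alternatives were other thresholds, pseudocounts, scalings, count shares and each pool alone.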

Additional observations from a re-analysis of the deposited data

How the results depend on the processing

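The number of detected receptors was 10. It was 12 at a TPM of at least 0.5 (34.3%, beside 56.1% of protein-coding genes), 14 at 10 or more expected counts (40%, beside 60.1%), 10 with TPM rescaled to mouse genes and 10 to 11 with either pool alone. It fell to 1 at a TPM of at least 5, which is 2.86% of the receptors, beside 35.9%. At that cut receptor kinases and arrestins fell from 7 to 2, the transmitter synthesis list from 8 to 5 and G protein alpha subunits from 9 to 8. At 10 or more expected counts, 3 nicotinic and serotonin 3 subunits were detected instead of 1. By expected counts, in which longer transcripts weigh more, Drd4 held 92.8% of the dopamine receptors, and the shares by G protein were 77.8% for Gi/o, 15.9% for Gq/11 and 6.21% for Gs, in the same order as by TPM. With either pool alone the leading share ran from 83.5% to 88.5% for Htr1b, from 33.2% to 54.7% for Adra2b, from 96.5% to 97.03% for Drd4, from 96.6% to 99.4% for Chrm2 and from 51.01% to 55.7% for Hrh1, and the class share from 68.7% to 73.8% for Gi/o, from 17.4% to 21.5% for Gq/11 and from 8.60% to 9.87% for Gs. No receptor passed a log2 difference of 1 between the pools with a pseudocount of 1. With a pseudocount of 0.1, 2 did, with TMM or DESeq2 size factors 1 did, and scaled to the spike-ins 2 did. The share of all protein-coding genes past that cut was not computed at these settings, so these counts have no background. No paired analysis was possible because there was 1 group. At this depth low receptors rest on few reads: 12 had no count in pool 1 and 8 had none in pool 2.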
